A study of Mus musculus with 36 samples.

Results

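The binding of 2 chromatin proteins near 9 genes of the neuroectoderm, Pax6, Sox1, Nes, Neurog1, Neurog2, Olig2, Hes5, Zic1 and Tubb3, is described here. They are 9 of the 21887 protein-coding genes that RefSeq places on chromosomes 1 to 19, X and Y of GRCm38.p6, the assembly behind mm10. They were taken by name, and their peaks are all those that lie in the gene or within 50 kb of either annotated end, 206 peaks in all. The neighbourhoods do not overlap and hold 971 kb together. The cells were mouse embryonic stem cells, and the assay was ChIP-seq, the sequencing of chromatin fragments pulled down with an antibody, here against MBD3 or against CTCF, beside input chromatin. Each was sampled on days 0, 2, 4 and 6 with 3 replicates, which makes 36 samples in 12 groups. All groups share the labelled line. The names of the 8 peak lists mark all of them WT, and the sample labels give no genotype, no agent and no account of what was done to the cells between the days. Growth was in serum replacement with leukaemia inhibitory factor on irradiated mouse fibroblasts, whose share of the chromatin is not given. The series title puts the question at the relation of the NuRD complex to CTCF sites. The peaks were called on the 3 replicates of a group together, which gives 8 lists and no spread between replicates. Nothing below is therefore tested, and values stand beside those of all genes or all sites. The files hold no expression, so neither the cell type nor the activity of the 9 genes was checked against markers.

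Neuroectoderm is the part of the early embryo that becomes the neural tube, and in stem cells its genes are held silent or at low activity until neural fate is taken. Sox1, Pax6 and Zic1 encode transcription factors of neural progenitors, Neurog1 and Neurog2 encode basic helix-loop-helix factors that commit progenitors to neurons, and Olig2 encodes another that specifies motor neurons and oligodendrocytes. Hes5 is a target of Notch signalling that delays neuron formation, Nes encodes the intermediate filament nestin of neural progenitors, and Tubb3 encodes the neuronal class III beta-tubulin. CTCF is a zinc finger protein that binds insulators and anchors chromatin loops. MBD3 belongs to NuRD, a complex that remodels nucleosomes and removes acetyl groups from histones, and that in stem cells restrains lineage genes.

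The strength of a peak is given as the authors' fold enrichment at its summit over the expected background. The number of fragments over the summit was recovered from the fold and the p-value, and its error is counting error only. Whole lists held 10464, 1991, 9006 and 10875 MBD3 peaks on days 0, 2, 4 and 6, and 47414, 28137, 36787 and 38109 CTCF peaks. The background level of a list, which follows its depth, was 1.51, 2.18, 1.93 and 1.41 fragments for MBD3 and 2.87, 2.67, 1.83 and 1.87 for CTCF on those days. Folds of different days rest on different backgrounds. The day 2 lists were the shortest of each antibody, and the CTCF list of day 0 was the longest and had the highest level. The part of depth in the differences between days was not tested beyond the limits given for single sites below. Those limits take in the counting error of the seen peak and not that of the other day. They also keep the fold of the seen peak, and at member sites found on every day folds were lower on day 2 than on day 0. A peak given below as one that would have been listed could therefore still have been missed.

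CTCF lay near every one of the 9 genes on day 0 and near all but Zic1 on the later days, while MBD3 was found near 7, 3, 6 and 5 of them on days 0, 2, 4 and 6. The 9 neighbourhoods held 15, 4, 11 and 13 MBD3 peaks and 60, 29, 37 and 37 CTCF peaks on those days. Of all protein-coding genes, 57.8%, 17.3%, 54.6% and 59.8% had an MBD3 peak in the gene or within 50 kb on the 4 days. The CTCF shares over all genes were 87.3%, 81.2%, 84.9% and 85.2%, so the presence of CTCF somewhere near a member is what most genes show. Pax6 and Zic1 had no MBD3 peak on any day, which holds for 27.2% of all genes. Peaks were unevenly spread over the members. On day 0 the number of CTCF peaks per length was higher near Nes, with 14 peaks, than near 99.1% of all genes, and higher near Neurog1, with 11 peaks, than near 97.4%. Tubb3 with 10 peaks and Hes5 with 8 stood above 93.7% and 89.9% of genes. Pax6, with 2 peaks in the longest neighbourhood, stood above 26.9%. The other 4 members had 3 or 4 peaks each, against a median of 4 over all genes.

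**Figure D1:**
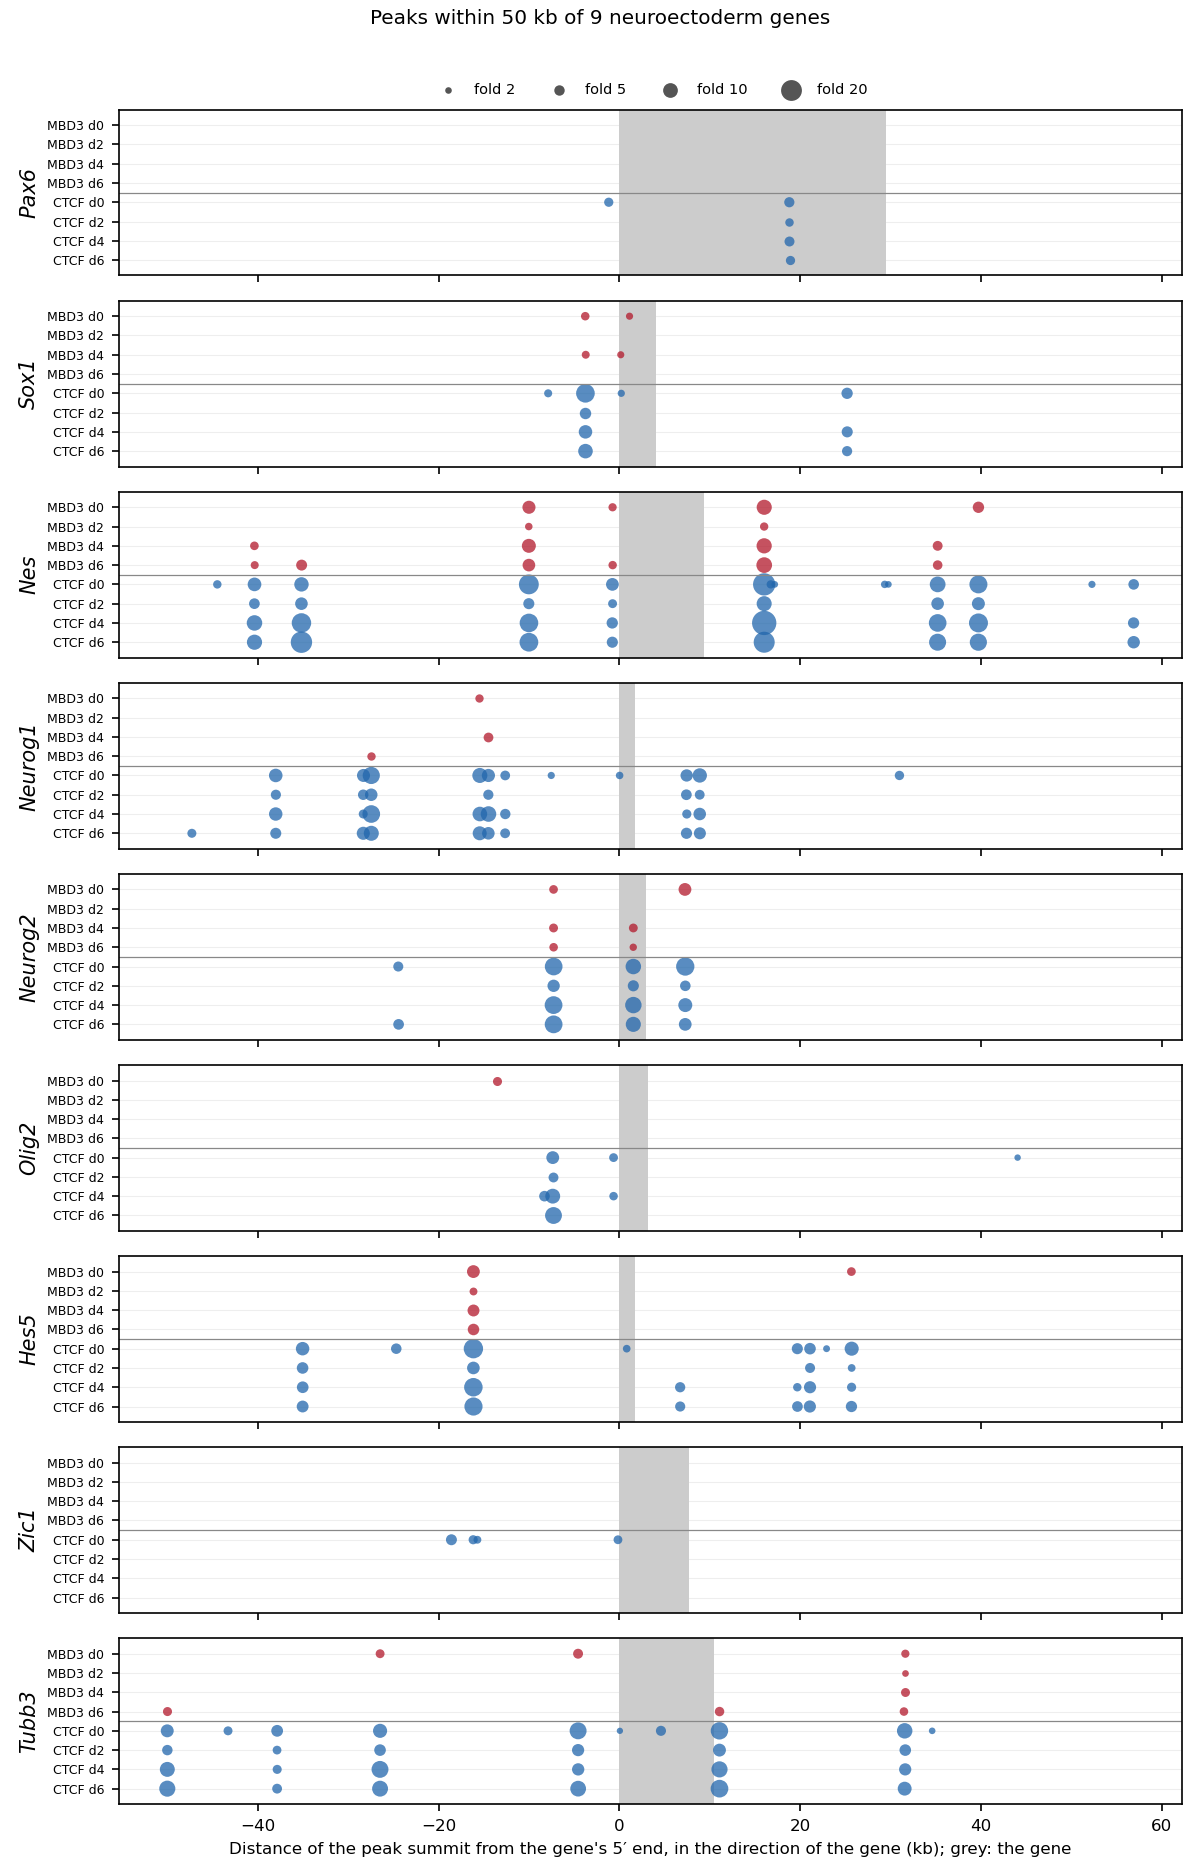
Peaks near the 9 genes, with MBD3 in the upper 4 rows of each panel and CTCF in the lower 4 (days 0, 2, 4 and 6 downwards). The x axis is the distance of the summit from the gene's 5′ end in kb, grey marks the gene, and the area of a point follows the fold. CTCF sites recur in columns near Nes, Neurog1 and Tubb3, the 4 CTCF peaks near Zic1 are all of day 0, and most MBD3 points stand above a CTCF column.

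At the gene ends, CTCF was present on day 0 at 7 of the 9 members and on days 2, 4 and 6 at 2, 3 and 2 of them. Over all protein-coding genes the shares with a CTCF peak within 1 kb of either end were 34.3%, 15.6%, 20.3% and 21.0%. The 7 members were Sox1, Zic1, Neurog1, Olig2, Hes5, Nes and Tubb3, and the 2 without an end peak were Pax6 and Neurog2. Nes and Tubb3 had an end peak on all 4 days, which 15.0% of genes did. The 5 with CTCF at an end on day 0 and not on day 6 were Sox1, Zic1, Neurog1, Olig2 and Hes5, and 14.0% of all genes showed this pattern. Of the 7 members with a CTCF end peak on day 0, 5 had none on day 6 and 4 had none on any later day, with Olig2 the 1 that had its peak again on day 4. Of all genes with such a peak on day 0, 40.6% had none on day 6 and 37.4% had none on any later day. The day 0 count of 7 fell to 4 members with a −log10 q of 10 or more, and to 2 members when the 4 CTCF lists were shortened to the same number of peaks. No member had CTCF at an end on day 6 and not on day 0, a pattern of 0.644% of genes. MBD3 lay within 1 kb of an end of 1, 0, 1 and 2 members on days 0, 2, 4 and 6, against 10.0%, 2.13%, 9.86% and 7.96% of all genes. Counts this small lie near those shares. The members with MBD3 at an end were Nes on days 0 and 6, Sox1 on day 4 and Tubb3 on day 6. No member (0 of 9) had MBD3 at an end on all 4 days, as 1.16% of genes did, or on day 0 and not on day 6, as 4.47% did.

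The day 0 CTCF peaks at the ends were mostly weak. Their median fold was 3.15, at percentile 14.0 of the day 0 list, while the median over all 7974 end peaks of that list stood at percentile 30.6. Of the 8 end peaks of the members, 6 lay below percentile 20, a limit chosen after their values were seen. Over the whole list, 86.9% of the end peaks below that percentile were found on no later day, against 9.99% of those above it. The end peaks below it had their median at percentile 6.48. The Zic1 peak, with a fold of 3.58, stood higher among them and at the same height would have been listed on each later day. Among the CTCF lists that of day 0 has the highest background level, and depth and day cannot be told apart for peaks near the limit.

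**Figure D2:**
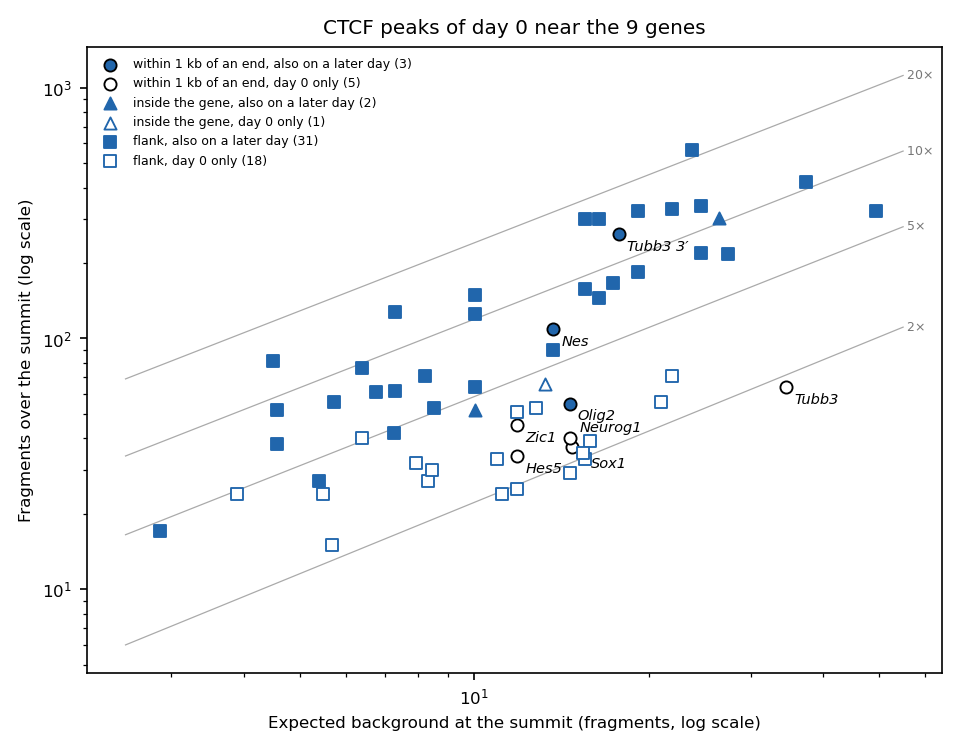
The 60 CTCF peaks of day 0 near the 9 genes, with expected background on the x axis and fragments over the summit on the y axis (both log scales), and lines of equal fold. Filled points were also found on a later day and open points were not. The end peaks of Sox1, Neurog1, Hes5 and Zic1 and the one at the Tubb3 start are open and lie at folds of 3.58 and below, while those of Nes and the 3′ end of Tubb3 are filled and lie at 7.49 and 14.0.

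Zic1, a zinc finger factor of the dorsal neural tube, was the member whose 4 CTCF peaks were all of day 0. The gene spans 91358058 to 91365768 on the minus strand of chromosome 9 and shares its promoter region with Zic4, which has an end within 1 kb of the peak. That peak had its summit 161 bp upstream of the Zic1 start, with 45 fragments (95% interval 32.8 to 60.2) and a fold of 3.58. At the same height it would have held 41.9, 28.7 and 29.3 fragments on days 2, 4 and 6, with lower 95% bounds of 30.5, 20.9 and 21.4. The fewest fragments of any listed peak with a like background were 23, 18 and 18 on those days, so an equally high peak would have been listed on each. The other 3 sites lay inside Zic4, 15714, 16184 and 18590 bp upstream, with folds of 2.84, 3.86 and 5.55 and 33, 24 and 40 fragments. For the strongest, at 18590 bp, an equally high peak would also have been listed on each later day. For the site at 15714 bp the absence was within counting error on each later day, and for the one at 16184 bp on days 4 and 6. Of all genes, 2.12% had CTCF in the neighbourhood on day 0 and on no later day. Among the 13140 genes with at least 4 such peaks on day 0 these were 10 genes, or 0.0761%, Zic1 included. No MBD3 peak lay near Zic1 on any day.

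The Zic1 promoter window of RefSeq (GRCm38.p6, chr9:91365719-91366018, minus strand, 250 bases before to 50 after the start) is shown because the day 0 summit fell on its base 90. The core of the CTCF motif, 12 letters that start with CC and, after 3 free letters, go on with AG, 2 more free letters and GGC, was searched on both strands. It has no match in this window, which says only that these letters are absent there.
Zic1: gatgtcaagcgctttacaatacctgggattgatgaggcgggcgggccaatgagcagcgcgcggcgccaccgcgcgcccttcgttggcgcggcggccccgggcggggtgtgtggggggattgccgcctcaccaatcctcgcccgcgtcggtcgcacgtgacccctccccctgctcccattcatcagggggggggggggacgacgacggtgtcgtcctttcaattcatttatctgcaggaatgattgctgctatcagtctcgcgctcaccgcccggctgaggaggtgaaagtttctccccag
The window holds 31 CpG dinucleotides, more than 86.0% of the 21263 protein-coding promoter windows. Of all those windows 9.88% hold the core. The share was 30.6% of the 2278 windows with a day 0 CTCF summit, 45.6% of those among them with a peak on all 4 days and 18.1% of those with no peak on later days. It was 6.74% of the windows without a CTCF peak on any day.

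Neurog1, which commits progenitors of cranial sensory neurons, had the most CTCF sites after Nes, and 6 of its 12 were found on all 4 days. The gene spans 56250478 to 56252180 on the minus strand of chromosome 13. Its end peak had the summit 22 bp inside the start on day 0, with 40 fragments over a background of 14.6 and a fold of 2.63, and it was not listed later. An equally high peak would have held 26.1 fragments on day 6 (18.6 to 35.5), where the fewest listed was 21, so its absence there is within counting error, as it is on days 2 and 4. The promoter window (chr13:56252131-56252430, minus strand, RefSeq, GRCm38.p6) is shown because it holds 2 matches of the core, in capitals. They lie at bases 18 to 29, as spelled, and at bases 169 to 180, on the other strand. The day 0 summit fell on base 273, outside both.
Neurog1: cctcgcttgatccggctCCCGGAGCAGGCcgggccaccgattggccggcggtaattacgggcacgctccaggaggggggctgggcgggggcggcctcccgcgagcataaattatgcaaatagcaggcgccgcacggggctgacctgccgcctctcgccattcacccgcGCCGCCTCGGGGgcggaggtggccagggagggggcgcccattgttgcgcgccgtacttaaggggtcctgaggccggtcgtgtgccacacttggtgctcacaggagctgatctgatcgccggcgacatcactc
The strongest site near Neurog1 lay 27461 bp upstream, with CTCF folds of 13.6, 7.23, 14.3 and 10.4 and 149, 82, 122 and 145 fragments on days 0, 2, 4 and 6. MBD3 was listed there on day 6 alone, with a fold of 3.24 and 34 fragments. The 2 other MBD3 sites near Neurog1 were also of 1 day each, 15499 bp upstream on day 0 with 10 fragments and a fold of 3.20, and 14511 bp upstream on day 4 with 20 fragments and a fold of 4.40. Each of the 3 lay in a CTCF peak of the same day. An MBD3 peak as high as that of day 6 at the 27461 bp site would have been listed on days 0, 2 and 4. At the 15499 and 14511 bp sites the absence of MBD3 was within counting error on every other day. Downstream, the CTCF sites at 5740 and 7187 bp past the 3′ end were found on all 4 days and lie within 1 kb of an end of 4930550C17Rik. A site 47313 bp upstream was listed on day 6 alone, with a fold of 3.75, and an equally high peak would have been listed on day 0.

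Neurog2, the relative of Neurog1 that acts in cortical and motor neuron progenitors, had CTCF inside the gene on every day. The gene spans 127632733 to 127635636 on the plus strand of chromosome 3. The summit inside it lay 1540 bp from the 5′ end, too far from either end to count as an end peak. CTCF folds there were 11.1, 5.69, 12.4 and 10.5, with 303, 205, 200 and 225 fragments on days 0, 2, 4 and 6. MBD3 was listed at this site on days 4 and 6, with folds of 3.61 and 2.51 and 62 and 41 fragments. At the height of day 4 it would have held 48.5 fragments on day 0 (37.2 to 62.2), where the fewest listed was 26. MBD3 at the height of day 4 would therefore have been listed inside Neurog2 on day 0, and also on day 2. Its 2 strong flanking sites framed the gene. Upstream, 7276 bp from the start and within 1 kb of an end of Gm40147, CTCF folds were 14.4, 7.0, 14.6 and 14.5, and MBD3 was listed on days 0, 4 and 6 with folds of 3.49, 3.65 and 3.38. Downstream, 4383 bp past the 3′ end, CTCF folds were 15.4, 5.14, 9.01 and 7.48. MBD3 was listed there on day 0 alone, with a fold of 7.55 and 36 fragments, and an equally high peak would have been listed on each later day.

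Sox1, an early marker of the neural plate, had MBD3 at its start on 1 day and CTCF there on another. The gene spans 12395519 to 12399555 on the plus strand of chromosome 8, inside the noncoding gene Sox1ot. CTCF was listed 205 bp inside the start on day 0, with 37 fragments and a fold of 2.41. MBD3 was listed 148 bp inside the start on day 4, with 29 fragments and a fold of 2.34. For each of these peaks an equally high one on the other days would have been within counting error of the fewest listed. MBD3 was further listed 1119 bp inside the gene on day 0, with 21 fragments and a fold of 2.37. These 2 MBD3 peaks had no CTCF peak of the same day. The strong CTCF site of Sox1 lay 3761 bp upstream, with folds of 16.0, 6.02, 8.40 and 9.80 and 322, 212, 122 and 131 fragments on days 0, 2, 4 and 6. MBD3 was listed there on days 0 and 4, with folds of 3.35 and 2.92. A CTCF site 21160 bp past the 3′ end was found on days 0, 4 and 6 and not on day 2. At the height of day 0 it would have held 59.5 fragments on day 2, against a fewest of 21.

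Pax6, a regulator of the eye and of cortical progenitors, had 2 CTCF sites and no MBD3. The gene spans 105668896 to 105698410 on the plus strand of chromosome 2, with a further annotated start at 105682463. The site 18802 bp inside the gene was found on all 4 days, with folds of 4.80, 3.31, 4.59 and 3.94 and 52, 41, 24 and 26 fragments. It was weaker than the median of the CTCF list on every day, which was 6.67, 5.46, 8.56 and 8.91. The other site lay 1180 bp upstream of the start, inside the antisense gene Pax6os1 and just outside the 1 kb window. It was found on day 0 alone, with 53 fragments (39.7 to 69.3) and a fold of 3.92. An equally high peak would have held 34.5 fragments on day 6 (25.9 to 45.2), where the fewest listed was 19, and would have been listed on days 2 and 4 as well.

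Olig2 had a CTCF peak at its start on days 0 and 4 and a stronger one farther upstream on every day. The gene spans 91225550 to 91228677 on the plus strand of chromosome 16. The end peak lay 649 bp upstream, with folds of 3.59 and 3.35 and 55 and 29 fragments on days 0 and 4. A peak at the height of day 0 would have been listed on days 2 and 6, with 51.2 and 35.8 fragments against a fewest of 28 and 21. The lower count of day 4 was not set beside these limits. The site 7385 bp upstream had folds of 7.59, 4.51, 10.2 and 13.1 and 62, 33, 44 and 56 fragments on days 0, 2, 4 and 6. Its percentile in the list was highest on day 6, at 76.3. The only MBD3 peak near Olig2 lay 13561 bp upstream on day 0, with 12 fragments and a fold of 3.78, and no CTCF peak lay there on any day. A weak CTCF peak of day 0, with a fold of 1.92, lay 40938 bp past the 3′ end within 1 kb of an end of Olig1, the neighbouring gene of the same family.

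Hes5 carried 1 site at which both proteins were listed on every day, with MBD3 weak on day 2, at percentile 18.6 of its list. The gene spans 154960626 to 154962372 on the plus strand of chromosome 4. The site lay 16158 bp upstream, between genes, with MBD3 folds of 7.57, 2.87, 6.55 and 6.13 and 73, 58, 98 and 69 fragments on days 0, 2, 4 and 6. CTCF folds there were 17.3, 7.36, 15.8 and 15.2, with 300, 176, 218 and 235 fragments. The CTCF peak at the gene itself, 807 bp inside the 5′ end, was listed on day 0 alone with 34 fragments and a fold of 2.72, and its absence later is within counting error. The Hes5 promoter window is the richest in CpG of the 9, with 41, more than 95.5% of coding windows, and it holds no core. The CTCF peak lay outside this window. Downstream, CTCF sites at an end of the pantothenate kinase family gene Pank4 and inside the phospholipase gene Plch2 recurred. The site inside Plch2, 23957 bp past the 3′ end of Hes5, had CTCF on all 4 days and MBD3 on day 0 alone, with a fold of 3.51 and 35 fragments. A CTCF site 4975 bp past the 3′ end, inside Pank4, was listed on days 4 and 6 with folds of 4.85 and 4.75 and not on day 0.

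Nes had the most sites of both antibodies, with 7 for MBD3 and 14 for CTCF. The gene spans 87971093 to 87980451 on the plus strand of chromosome 3. Its end peak lay 776 bp upstream, with CTCF folds of 7.49, 3.68, 5.90 and 5.72 and 109, 52, 72 and 79 fragments on days 0, 2, 4 and 6. MBD3 was listed there on days 0 and 6, with folds of 3.14 and 3.27 and 22 and 33 fragments. Its absence on days 2 and 4 is within counting error. This was the only gene start among the 9 at which CTCF was found on all 4 days.

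The strongest site of all 9 neighbourhoods lay 6661 bp past the 3′ end of Nes, within 1 kb of an end of Bcan, which encodes the brain proteoglycan brevican. MBD3 folds there were 10.5, 3.20, 10.7 and 11.3, with 143, 78, 194 and 212 fragments on days 0, 2, 4 and 6. CTCF folds were 22.8, 10.4, 27.2 and 20.4, with 564, 320, 470 and 527 fragments. On day 0 its CTCF fold stood at percentile 98.9 of the list. A site 10023 bp upstream of Nes, within 1 kb of an end of Gm32518, also had both proteins on every day, with MBD3 folds of 7.88, 2.61, 9.03 and 7.39 and CTCF folds of 18.2, 5.66, 16.0 and 16.2. Farther upstream, 35188 bp from the start and inside Isg20l2, CTCF folds were 9.57, 7.32, 17.4 and 21.0, and MBD3 was listed on day 6 alone, with 43 fragments and a fold of 5.54. At that height MBD3 would have held 46.0 fragments on day 0 (33.3 to 62.0) and would have been listed there. Of the 14 CTCF sites near Nes, 7 were found on all 4 days and 6 on day 0 alone, and the folds of those 6 were 2.06 to 3.28.

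**Figure D3:**
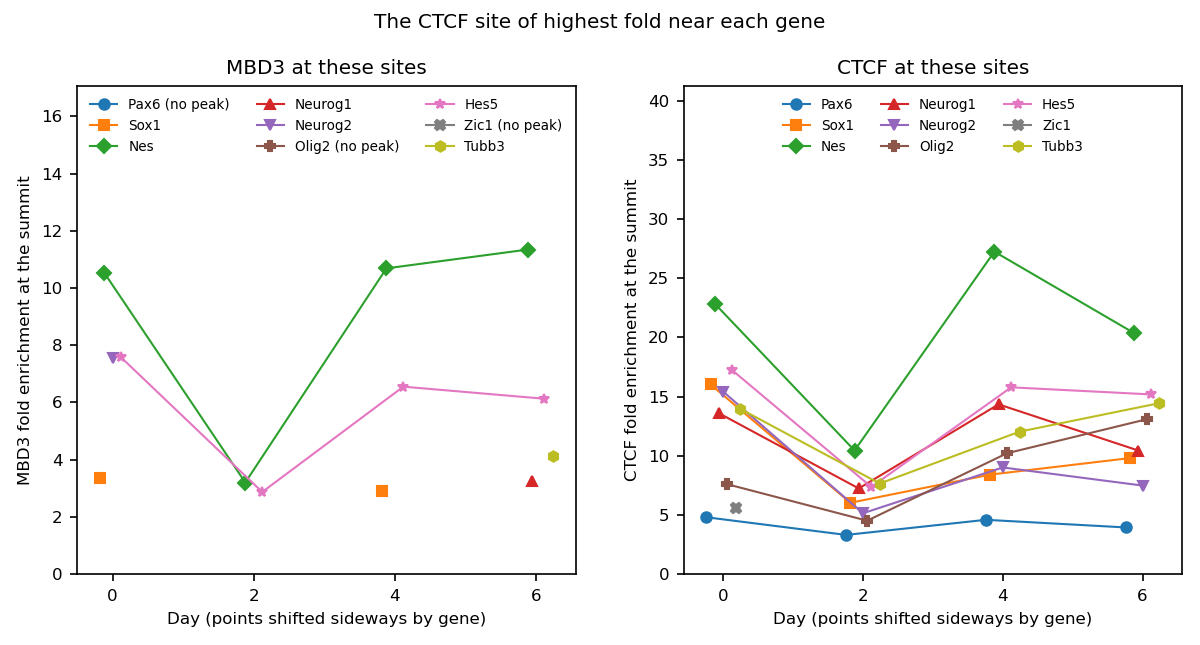
The CTCF site of highest fold near each gene, with the day on the x axis and the fold of MBD3 (left) and of CTCF (right) on the y axis. A missing point is a day without a peak. The CTCF fold was lowest on day 2 at the 8 sites with a peak on all 4 days, MBD3 was listed on all 4 days at the sites of Nes and Hes5, and the sites of Pax6, Olig2 and Zic1 had no MBD3 peak.

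Tubb3 had its strong end peak at the 3′ end. The gene spans 123411553 to 123422015 on the plus strand of chromosome 8. The summit lay 607 bp past the 3′ end, with CTCF folds of 14.0, 7.65, 12.0 and 14.4 and 261, 122, 125 and 156 fragments on days 0, 2, 4 and 6. MBD3 was listed there on day 6 alone, with 36 fragments (25.2 to 49.8) and a fold of 4.12. At the same height MBD3 would have held 38.6, 55.7 and 49.3 fragments on days 0, 2 and 4, with lower bounds of 27.0, 39.0 and 34.5. The fewest listed on those days were 20, 27 and 24, so an equally high MBD3 peak would have been listed on each. Tubb3 was the only member with MBD3 at an end on day 6 and not on day 0, a pattern of 2.41% of all genes. At the Tubb3 start a CTCF peak was listed on day 0 alone, with 64 fragments over a background of 34.6 and a fold of 1.83. An equally high peak would have held 41.7 fragments on day 6, with a 95% interval of 32.1 to 53.3 that takes in the 42 of the lowest listed, so its absence there is within counting error. A CTCF peak 4597 bp inside the gene was also listed on day 0 alone, with 66 fragments and a fold of 4.70, and there an equally high peak would have been listed on each later day.

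The flank of Tubb3 held CTCF sites at its neighbours. Upstream, 4572 bp from the Tubb3 start and at the start of Mc1r, the melanocortin receptor gene of pigment cells, CTCF folds were 13.2, 6.87, 6.99 and 11.4, with 338, 167, 141 and 165 fragments on days 0, 2, 4 and 6. MBD3 was listed there on day 0 alone, with 59 fragments and a fold of 4.55. At that height MBD3 would have held 55.1 fragments on day 6 (41.9 to 71.1), against a fewest of 25. Both genes have CTCF at their start on day 0, Tubb3 with the fold of 1.83 and Mc1r with 13.2. The promoter windows of both (chr8:123406832-123407131 and chr8:123411303-123411602, plus strand, RefSeq, GRCm38.p6) are shown for that contrast. The Mc1r window holds 1 match of the core, in capitals, on the other strand at bases 151 to 162, and the Tubb3 window holds none. The day 0 summit at Tubb3 lay just past the end of its window, and the bases beyond it were not searched.
Mc1r: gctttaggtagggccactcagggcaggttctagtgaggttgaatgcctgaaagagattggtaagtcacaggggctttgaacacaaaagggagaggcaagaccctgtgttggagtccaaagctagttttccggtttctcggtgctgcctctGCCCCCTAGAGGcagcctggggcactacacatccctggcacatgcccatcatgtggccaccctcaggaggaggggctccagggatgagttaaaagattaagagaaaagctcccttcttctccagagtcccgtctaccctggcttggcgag
Tubb3: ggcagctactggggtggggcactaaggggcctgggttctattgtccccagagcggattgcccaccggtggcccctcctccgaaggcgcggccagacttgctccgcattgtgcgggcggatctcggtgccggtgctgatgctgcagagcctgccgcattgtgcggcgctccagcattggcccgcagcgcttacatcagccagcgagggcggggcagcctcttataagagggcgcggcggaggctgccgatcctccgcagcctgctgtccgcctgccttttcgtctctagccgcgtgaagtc
The MBD3 summit of day 0 fell on base 146 of the Mc1r window, and the CTCF summits of days 0, 2, 4 and 6 fell on bases 150, 150, 158 and 156, within or next to the core. At Def8, farther downstream, 1 of the promoter windows also holds 1 match, on the other strand at bases 218 to 229. The MBD3 summits of the 4 days fell on bases 187, 166, 102 and 32 of that window and the CTCF summits on bases 113, 178, 169 and 111, all outside the match. A match is a description of the letters and not a measured binding site. The Mc1r window holds 4 CpG, more than 23.9% of coding windows, and the Tubb3 window 26, more than 77.4%. No core was found in the windows of Pax6, Sox1, Nes, Neurog2, Olig2 and Hes5. These windows held no CTCF peak on any day. The end peaks of Sox1, Nes, Olig2 and Hes5 lay outside them, and the bases under those peaks were not searched. Downstream, 21106 bp past the 3′ end of Tubb3 at Def8, both proteins were listed on all 4 days, with MBD3 folds of 3.12, 2.07, 3.70 and 3.38 and CTCF folds of 11.0, 6.20, 6.88 and 8.90. The background under these MBD3 peaks was high, at 14.2, 18.0, 15.0 and 17.1 times the level of the list. On day 6 MBD3 was also listed 50011 bp upstream of Tubb3, inside Spire2, with a fold of 3.78, and an equally high peak would have been listed on days 0, 2 and 4.

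Merged over days, the peaks made 24 MBD3 sites and 63 CTCF sites. Of the MBD3 sites 4 (16.7%, 95% interval 4.74 to 37.4) had a peak on all 4 days, against 4.90% of all MBD3 sites. These 4 were the sites of Nes at Bcan and at Gm32518, of Hes5 and of Tubb3 at Def8, and all 4 had CTCF on every day too. Of the CTCF sites 29 (46.0%, 33.4 to 59.1) had a peak on all 4 days, against 47.3% of all CTCF sites, which does not set the members apart. Sites of day 0 alone made up 24 of the 63 CTCF sites (38.1%, 26.1 to 51.2), against 20.6% of all sites, and 8 of the 24 MBD3 sites (33.3%, 15.6 to 55.3), against 20.1%. The CTCF sites of day 0 alone were 5 of 8 at ends, 1 of 3 in gene bodies and 18 of 52 in flanks. They were spread over 8 members, with 6 near Nes, 4 each near Zic1 and Tubb3, 3 each near Neurog1 and Hes5, 2 near Sox1 and 1 each near Pax6 and Olig2, and none near Neurog2. The sites came from 9 places in the genome and are not independent of each other, so the intervals cover counting error only. They were not matched to all sites for peak strength. Over the whole CTCF list of day 0, 73.5% of the peaks away from gene ends and below percentile 20 were found on no later day. The share was 19.7% over all peaks away from gene ends. Only 3 CTCF sites were absent on day 0, namely those near Olig2 at 8293 bp upstream on day 4, near Neurog1 on day 6 and near Hes5, 4975 bp past its 3′ end, on days 4 and 6. For all 3 an equally high peak would have been listed on day 0.

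**Figure D4:**
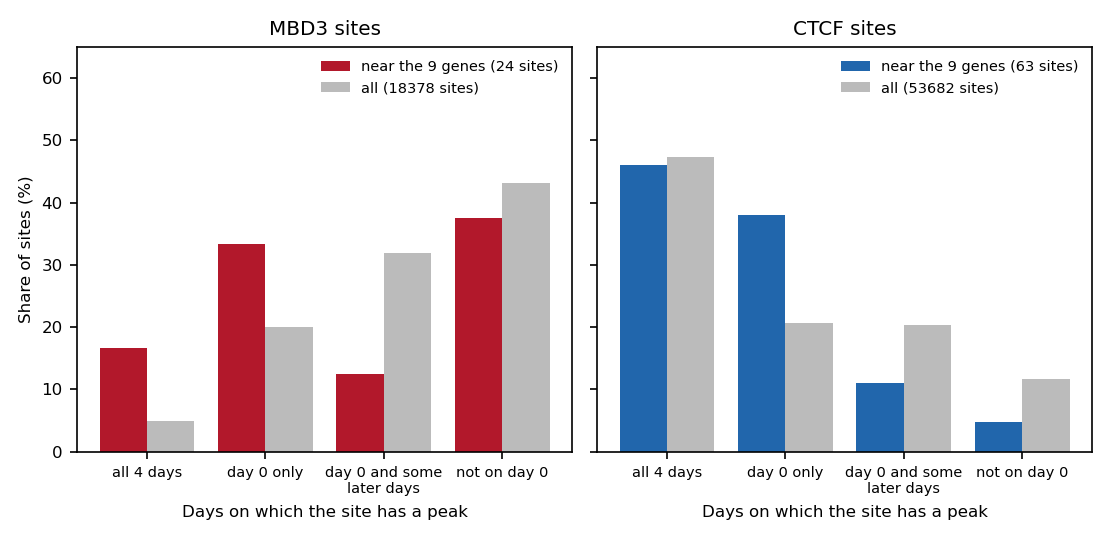
Share of sites by the days on which they had a peak, for MBD3 (left) and CTCF (right), with the sites near the 9 genes in colour and all sites in grey. CTCF sites near the 9 genes were found on day 0 alone in 38.1%, against 20.6% of all sites, and on all 4 days in 46.0%, against 47.3%. Sites were not matched for peak strength.

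An absent peak could often not be told from one just under the limit of its list. Of 26 CTCF sites without a peak on day 6, 11 would have been listed at the height seen on another day, and the absence at the others was within counting error. For 6 of these others the expected fragments were under the fewest listed, with upper 95% bounds above it. Of 34 CTCF sites without a peak on day 2, 20 would have been listed. For MBD3, 14 of the 20 sites without a peak on day 2 and 5 of the 11 without a peak on day 6 would have been listed. These counts take the fold of the seen peak as unchanged. At the member sites found on every day, folds were lower on day 2 than on day 0. At the Nes site by Bcan, CTCF went from 22.8 to 10.4 and MBD3 from 10.5 to 3.20. Whether peaks with folds so reduced would have been listed on day 2 was not tested.

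MBD3 near the 9 genes lay almost wholly in CTCF peaks of the same day, in 13 of 15, 4 of 4, 10 of 11 and 13 of 13 peaks on days 0, 2, 4 and 6. Over the whole lists the shares were 88.9%, 53.7%, 84.3% and 91.8%. The 3 exceptions were the MBD3 peaks inside Sox1 on days 0 and 4 and the one upstream of Olig2 on day 0. MBD3 summits lay at a median of 13, 4, 8.5 and 7 bp from the CTCF summit and at most 74, 12, 67 and 79 bp from it. Of the CTCF peaks near the members, 21.7%, 13.8%, 27.0% and 35.1% overlapped MBD3 on the 4 days. Over the whole CTCF lists the shares were 19.5%, 3.80%, 20.6% and 26.1%. CTCF peaks near the members with MBD3 had median folds of 14.4, 6.78, 13.4 and 13.4 on the 4 days, and those without it 4.66, 5.27, 6.28 and 6.58. No whole-list medians stand beside these, so whether this sets the members apart was not tested. The strongest CTCF peak without MBD3 on day 0 was the one at the 3′ end of Tubb3, with a fold of 14.0. Binding of both proteins and carry-over of chromatin between the pulldowns cannot be told apart here.

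Genes of the same pathways were set beside the members at their ends. Over all genes CTCF lay at an end of 34.3%, 15.6%, 20.3% and 21.0% on days 0, 2, 4 and 6. The shares for MBD3 were 10.0%, 2.13%, 9.86% and 7.96%. An end peak on day 0 and none on day 6 was found for CTCF at 5 of the 9 members and for MBD3 at 0 of 9, and over all genes at 14.0% for CTCF and 4.47% for MBD3. Of 20 other neural transcription factor genes, CTCF lay at an end of 6, 0, 1 and 1 on days 0, 2, 4 and 6, and MBD3 at 2, 1, 2 and 1. The 5 with CTCF on day 0 and not on day 6 included Zic4, which shares the peak of Zic1, Pax2 with a fold of 2.49 and Pou3f3 with 3.48. Of 12 genes of the Notch pathway, which acts through Hes5, CTCF lay at an end of 11, 4, 6 and 5 on the 4 days, and MBD3 at 3, 0, 2 and 0. The 6 with CTCF on day 0 and not on day 6 were led by Hes6, Dll4 and Numb, with folds of 4.37, 4.17 and 2.09. MBD3 was at Rbpj, the DNA-binding partner of Notch, and at Hes1 and Hes3 on day 0 and not on day 6, with folds of 4.60, 3.68 and 3.46. Of 13 genes of Hedgehog patterning, which sets the domain of Olig2, CTCF lay at an end of 7, 4, 4 and 4, and MBD3 at 4, 0, 2 and 2. CTCF on day 0 and not on day 6 was found at Nkx6-1, Nkx2-2 and Olig1, with folds of 2.51, 2.90 and 1.92, and MBD3 at Irx3 and Smo, with 3.19 and 2.72. Of 14 genes of the neuronal and glial cytoskeleton and adhesion, CTCF lay at an end of 1, 0, 0 and 0, with Tubb4a on day 0, and MBD3 at 1, 1, 1 and 0, with Stmn1 on day 0. Sox21 was the 1 other transcription factor gene with MBD3 on day 0 and not on day 6, with a fold of 3.90. No gene of the 4 lists had either protein at an end on day 6 and not on day 0, as Tubb3 did for MBD3. Over all genes this pattern was found at 0.644% for CTCF and 2.41% for MBD3, so counts of 0 lie near those shares. None had both proteins at an end on all 4 days, and over all genes MBD3 itself was there on all 4 days at 1.16%. MBD3 alone was at an end on all 4 days at 1 of the 20 other transcription factor genes. It was so at 0 genes of each other list. CTCF was at an end on all 4 days at 4 of the 12 Notch and 4 of the 13 Hedgehog genes. It was so at 0 of the 20 and 0 of the 14 others, and at 15.0% of all genes.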

How the data were processed

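Per the submitters' processing notes, the build was mm10 and the tools were MACS2 2.1.2, Bowtie2 2.3.4, bedtools 2.25.0, FastQC 0.11.7 and SAMtools 1.9. The authors deposited 8 peak lists, and the peak names give replicates 1 to 3 together and a control. Their values are a fold enrichment (a ratio of fragments to expected background), a −log10 p and a −log10 q per peak, as the authors gave them. Input samples were not analysed on their own.

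Rows with the same interval were counted as 1 peak with the summit of highest −log10 q. A peak belonged to a gene when it overlapped the gene or 50 kb beside it by 1 bp or more, and was placed by its summit at an end (within 1 kb), in the body or in the flank. Fragments at a summit and the expected background were computed from fold and p by the formulas of MACS2. They returned the deposited −log10 p to within 0.1% for 99.9% to 100% of a list, and for all 206 peaks of the members. What an absent peak allows was found by scaling the fragments and the background of a seen peak by the ratio of the 2 lists' background levels. The result was set beside the fewest fragments of the peaks listed with a background within 10%, where at least 20 were listed. A peak was taken as one that would have been listed when the lower 95% bound reached that number. The bound covers the counting error of the seen peak and not that of the count on the other day. It also takes the fold as the same on both days. A peak so taken could still have been missed. Intervals are exact Poisson or Clopper-Pearson intervals and cover counting error only, since PCR fragments carry no molecular identifiers. Sites are peaks of 1 antibody merged over days. Percentiles are ranks by fold within a list, in percent of its length, with ties at their mean rank. Gene ends and promoter windows are those of RefSeq on GRCm38.p6, and all 9 members matched. Exons and introns were not told apart.

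The members, the 4 further gene lists, the rules and the alternatives were chosen with earlier results of these data known. Every end peak of a member and its strongest body and flank sites are named, as are flanking genes with a peak within 1 kb of an end. Genes of the other lists are named when only 1 of days 0 and 6 has an end peak, the 3 of highest −log10 q for each list, antibody and direction. The code was tested on simulated peaks. Software was Python 3.11.15, scipy 1.17.1, matplotlib 3.10.9, pandas 2.3.3 and numpy 2.4.6.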

Additional observations from a re-analysis of the deposited data

How the results depend on the processing

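Of 136 counts recomputed under another setting, 100 lay within 1.5 times of the reported count. With peaks of a −log10 q of 10 or more, MBD3 had 6, 1, 7 and 6 peaks near the 9 genes on days 0, 2, 4 and 6, of which 6, 1 and 6 overlapped CTCF on days 0, 2 and 6. No member then had MBD3 at an end on days 0, 4 and 6 (0 each), and 1 MBD3 site was found on all 4 days. CTCF was then at an end of 4 members on day 0 and of 2 on each of days 2, 4 and 6. With lists shortened to equal length, MBD3 had 5, 4 and 3 peaks on days 0, 4 and 6, with CTCF at 5, 4 and 3 of them, and 0 members had it at an end on those days. CTCF then had 32 peaks on day 0, and 2 members had it at an end on each of the 4 days. The part of list length in the day 0 excess of end peaks was not tested. With a flank of 25 kb, MBD3 had 8 peaks on day 6, 8 of them with CTCF, CTCF had 18 peaks on day 2 and 24 on day 6, and 18 CTCF sites were found on all 4 days. With an end window of 5 kb, MBD3 was at an end of 4 and 2 members on days 0 and 4, and CTCF of 4, 6 and 5 on days 2, 4 and 6. Without peaks whose background was over 10 times the level, MBD3 had 2 peaks on day 2, with CTCF at 2, and 2 sites on all 4 days. The sites at Def8 and at Bcan were the ones that fell out. Placing by summit, separate summits, summits within 100 bp and 50% overlap moved no count by more than 1.5 times. Leaving out day 2, chosen after seeing the data, gave 5 MBD3 and 34 CTCF sites on all remaining days. No paired analysis was possible because the peaks were called on pooled replicates, and for the same reason no replicate could be left out. Where an absence was within counting error, a difference was not detectable at this depth. The causes of these shifts were not tested.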
